A study of Mus musculus with 18 samples.

Results

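Interferon-stimulated genes are the genes whose transcription rises when a cell senses interferon. The 47 mouse genes described here were taken by symbol, and 46 of them were among the 34591 gene symbols of the count tables (Ifi27 is not analysed here). They fall into 11 genes of RNA sensing, 5 transcriptional regulators, 13 antiviral effectors, 11 genes of the ISG15, ubiquitin and PARP group and 6 interferon-inducible GTPases.

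Type I interferons act through the receptor chains Ifnar1 and Ifnar2 and the kinases Jak1 and Tyk2, and the complex that then binds interferon-stimulated response elements in promoters holds Stat2 and Irf9. Interferon gamma acts through Ifngr1 and Ifngr2, Jak1 and Jak2, and its response works through gamma-activated sites, among others in the promoter of Irf1. The induced proteins sense foreign RNA and DNA, block steps of viral growth, restrict bacteria in vacuoles, tag proteins with ISG15 and raise antigen presentation.

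Polyadenylated RNA came from 18 cultures of 4T1, a mammary tumour line of BALB/c mice, in 6 groups of 3. Parental cells were given fresh RPMI with 2 ng/mL of recombinant human TGFb1 (TGFb1) or fresh RPMI alone (untreated), and RNA was taken 24 h later. Stable lines, made with lentivirus and kept through puromycin selection, carried Wisp1 (a secreted CCN family protein) or the empty vector (EV). Each stable line was cultured on plastic and on collagen type I; all 6 groups were maintained in RPMI with serum and antibiotics. The promoter of the vector is not given in the sources used here, each construct is represented by 1 stable line, and replicates are cultures of the same line, so p-values measure the spread between cultures.

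Gene counts ran from 37.6 M to 94.4 M per library, and a floor of 3 counts corresponded to 0.0328 to 0.0817 counts per M gene counts (CPM, scaled over all 18 libraries). These floors cover counting error only. Wisp1 itself was at 892 to 1065 CPM in the Wisp1 line and 36.5 to 71.4 CPM in EV on plastic, and at 1058 to 1127 CPM in the Wisp1 line and 14.3 to 16.4 CPM in EV on collagen; endogenous and vector transcripts are not separated in these counts. Summed levels of 8 epithelial markers were 3363 to 6135 CPM over the 18 libraries, against 0.192 to 1.44 CPM for 8 leukocyte, 10.4 to 30.4 CPM for 7 macrophage and dendritic, 15.6 to 63.4 CPM for 6 fibroblast and 0.14 to 0.517 CPM for 5 endothelial markers. In cultures measured in bulk, fewer cells expressing a gene and less of its RNA per cell cannot be told apart.

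Promoter sequences are shown because the factors of this response bind there. RefSeq windows (GRCm38.p6, 250 bases before to 50 after the annotated start) were found for 35 of the 46 genes. The core of the response element, GAAA followed by any 2 bases (NN) and GAAA, on either strand, occurred in 17 of these 35 genes (48.57%), against 3.993% of all 27025 genes with a window. The longer form GAAA, NN, GAAA and CT, which contains the core, was present in 9 of 35 (25.71%) and in 0.3034% of all genes. The core of the gamma-activated site, TTC, NNN and GAA, was present in 9 of 35 (25.71%) and in 9.554% of all genes. These are matches of letters within the window and not measured binding.

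Promoters of 4 genes described below are shown up to the annotated start because they differ in their motifs: Gbp2, with a response element core, Isg15, with overlapping cores, Ifit1, with separate cores, and Irf1, with a gamma-activated site core and no response element core. Gbp2 lies at chr3:142620413-142620662 on the plus strand, Isg15 at chr4:156200819-156201068 on the minus strand, Irf1 at chr11:53769764-53770013 on the plus strand and Ifit1 at chr19:34640639-34640888 on the plus strand (GRCm38.p6). Capitals mark the motif cores on either strand, and each sequence runs in the direction of its gene.
Gbp2: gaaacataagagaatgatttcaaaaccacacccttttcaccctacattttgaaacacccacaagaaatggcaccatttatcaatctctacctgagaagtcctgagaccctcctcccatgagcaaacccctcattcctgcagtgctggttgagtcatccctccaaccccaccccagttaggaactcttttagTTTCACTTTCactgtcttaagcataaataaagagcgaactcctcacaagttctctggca
Isg15: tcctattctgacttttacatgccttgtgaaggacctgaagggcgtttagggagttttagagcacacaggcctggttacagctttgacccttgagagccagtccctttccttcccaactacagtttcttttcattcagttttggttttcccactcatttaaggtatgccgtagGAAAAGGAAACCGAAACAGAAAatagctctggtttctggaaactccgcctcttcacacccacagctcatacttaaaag
Irf1: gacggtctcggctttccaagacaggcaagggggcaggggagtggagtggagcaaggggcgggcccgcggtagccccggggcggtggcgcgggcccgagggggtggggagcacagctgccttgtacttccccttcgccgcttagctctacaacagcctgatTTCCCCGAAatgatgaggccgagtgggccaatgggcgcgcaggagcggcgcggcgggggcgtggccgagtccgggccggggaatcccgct
Ifit1: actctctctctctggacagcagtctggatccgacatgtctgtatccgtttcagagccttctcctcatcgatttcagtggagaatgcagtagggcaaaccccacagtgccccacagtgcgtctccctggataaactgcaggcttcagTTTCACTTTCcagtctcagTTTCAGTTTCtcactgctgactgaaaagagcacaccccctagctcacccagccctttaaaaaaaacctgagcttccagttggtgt
The core of Gbp2 spans positions -59 to -50 relative to the start, the 3 overlapping cores of Isg15 span -78 to -57, those of Ifit1 lie at -104 to -95 and -85 to -76, and the gamma-activated site core of Irf1 lies at -90 to -82.

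The longer element occurred in 7 further genes, whose 30 bases around the first match are given so that the shared letters can be compared, with the match in capitals. The positions are chr3:142530272-142530301 (plus strand), chr3:142559988-142560017 (plus), chr4:40239805-40239834 (minus), chr5:120907525-120907554 (minus), chr8:71537582-71537611 (minus), chr11:48871424-48871453 (minus) and chr19:34583362-34583391 (plus).
Gbp7: tgtgtgtgcAGTTTCAGTTTCagttctcca
Gbp3: tcaggacacAGTTTCAGTTTCtatttccca
Ddx58: ccctgaggcAGTTTCGATTTCctatggcca
Oas1a: ccttctcggGAAATGGAAACTgaaaatcta
Bst2: gcattccagGAAAATGAAACTgaaaggctg
Irgm1: caagaaataGAAACCGAAACTgattctcaa
Ifit3: tcagtggtaAGTTTCACTTTCctcttctgg
Gbp7 and Gbp3, neighbours on chromosome 3, share the whole stretch AGTTTCAGTTTC.

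**Figure D1:**
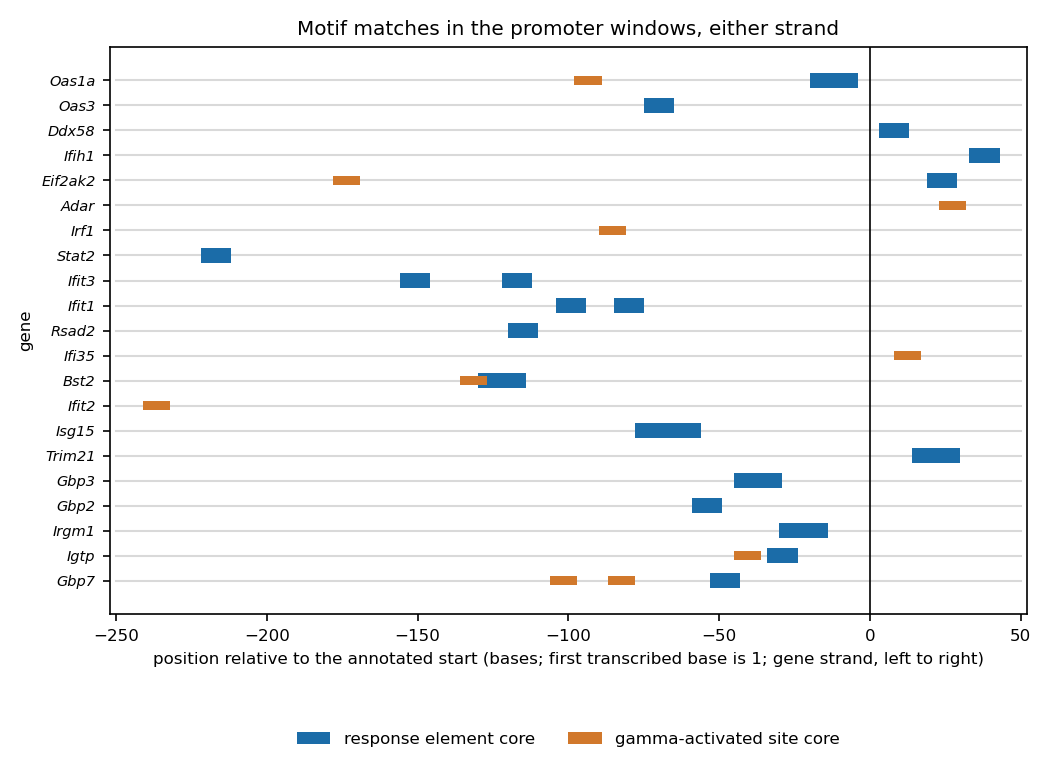
Positions of the response element core (blue) and the gamma-activated site core (orange) in the promoter windows of the 21 genes with a match; the horizontal axis gives bases relative to the annotated start, each grey line is 1 window, and overlapping matches are drawn as 1 block. The response element cores of the GTPase genes Gbp2, Gbp3, Gbp7, Igtp and Irgm1 all lie between -59 and -15.

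The first comparison asked how TGFb1 changed these genes in parental cells. All 46 had a higher fitted mean with TGFb1, 23 of them past the threshold and 0 lower, by edgeR's quasi-likelihood test with a Benjamini-Hochberg adjusted p under 0.05 over 14874 genes. Of all genes tested, 6.14% were called higher and 4.92% lower. The median log2 change of the 46 genes was 1.35, a 2.54-fold rise, against -0.01 for all genes tested. At an unadjusted p under 0.05 there were 38 of the 46, against 24.9% of all genes.

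Libraries of the parental groups share codes in their labels as well as replicate numbers, and same-numbered libraries deviated together (correlations across genes of 0.79, 0.55 and 0.78). With these pairs as a block, 45 of the 46 genes rose and 0 fell, where 22.4% of all genes were called higher; Ifit2 was the exception. The groups did not overlap, with every TGFb1 library above every untreated library, for 30 of 46 genes, against 15.1% of all genes tested. In 43 of 46 the level was higher with TGFb1 in each of the 3 pairs, against 33.4% of all genes; Ifit2, Mx1 and Oas2 were the exceptions, each lower in pair 3. The 8 leukocyte markers summed to 0.192 to 0.446 CPM with TGFb1 and 0.695 to 0.906 CPM in untreated cells. In both parental groups 4 of those 8 markers were at 0. Their part in the changes was not tested.

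**Figure D2:**
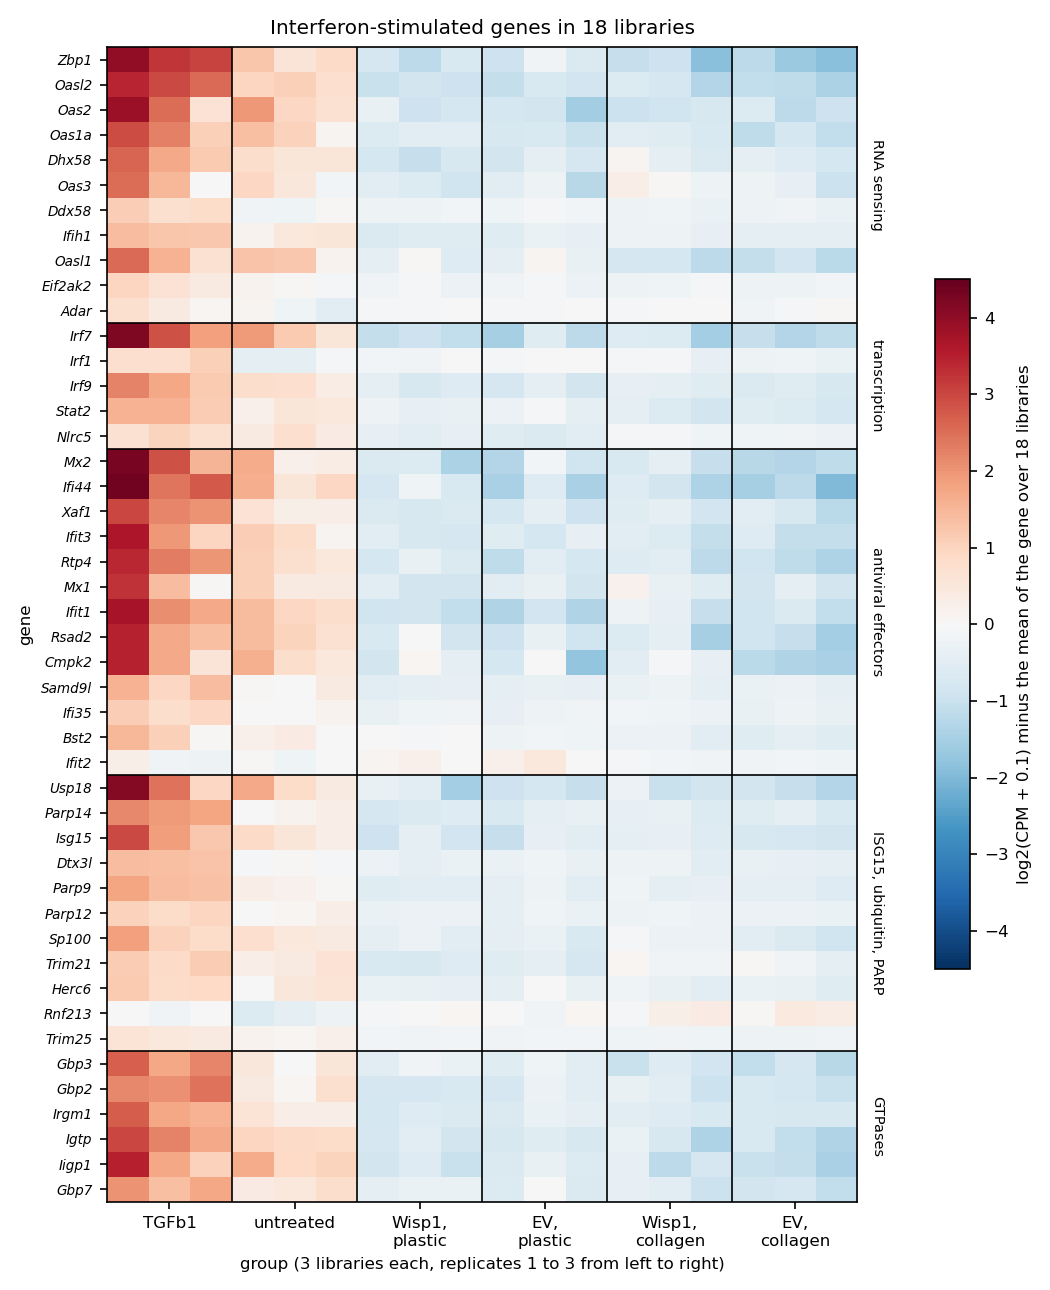
Heat map of the 46 genes (rows, by role) in the 18 libraries (columns, by group); the colour gives log2(CPM + 0.1) minus the mean of the gene over all libraries, red above and blue below it. The TGFb1 libraries are the reddest for most rows, replicate 1 above all, untreated libraries are intermediate, and the libraries of the stable lines are pale or blue.

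Among the regulators, Irf1, a transcription factor induced by interferon gamma and a driver of many of the other genes, had 144, 144 and 177 CPM with TGFb1 and 62.4, 64.2 and 79.0 CPM in untreated cells (replicates 1, 2 and 3). Every TGFb1 library lay far above every untreated one, and the rise was 2.28-fold (log2 change 1.19 ± 0.14 SE, edgeR adjusted p = 0.00561). Stat2, a subunit of the complex that binds response elements, had 64.9, 65.0 and 48.3 CPM with TGFb1 and 25.4, 31.7 and 30.3 CPM in untreated cells, and rose 2.05-fold (edgeR adjusted p = 0.0104). Irf9, the DNA-binding subunit of that complex, had 58.5, 41.8 and 28.3 CPM with TGFb1 and 21.7, 20.7 and 15.6 CPM in untreated cells. It rose 2.22-fold with a narrow margin to the threshold (edgeR adjusted p = 0.042), and its lowest TGFb1 library stood above its highest untreated library.

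Irf7, which amplifies type I interferon production, was at 46.2, 18.02 and 8.91 CPM with TGFb1 and at 9.42, 5.60 and 3.55 CPM in untreated cells. Its groups overlapped through TGFb1 replicate 3, and it was not called without the pairs (edgeR adjusted p = 0.108). Within pairs it was 2.28, 1.67 and 1.30 higher on the log2 scale and passed with the pairs as a block (adjusted p = 0.000423). Nlrc5, the activator of MHC class I genes, differed least among the regulators, at 45.9, 57.1 and 47.2 CPM with TGFb1 and 37.6, 48.4 and 37.2 CPM in untreated cells. The groups overlapped, and its small rise, 0.30 on the log2 scale, had an edgeR adjusted p of 0.007 with the pairs as a block, against 0.297 without, and it also passed in the fit of all 18 libraries.

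Of the 11 genes of RNA sensing, 5 rose without the block and all 11 with it, with a median log2 change of 1.18 without it. Zbp1, a sensor of Z-form nucleic acid, had the largest fitted change of the 46 genes, with 21.2, 12.3 and 10.9 CPM with TGFb1 and 3.045, 1.90 and 2.31 CPM in untreated cells. The groups were far apart, and the rise was 6.14-fold (log2 change 2.62 ± 0.32 SE, edgeR adjusted p = 0.00604). Oasl2, an antiviral protein of the oligoadenylate synthetase family, had 160, 114 and 87.1 CPM with TGFb1 and 28.4, 30.6 and 24.9 CPM in untreated cells. The order of the TGFb1 libraries was replicate 1, 2, 3, while the untreated libraries were close together, and the fold was 4.32 (edgeR adjusted p = 0.00391).

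Of the cytoplasmic RNA helicases, Ddx58 and Ifih1 rose. Ddx58, which encodes RIG-I, was at 113, 86.5 and 93.8 CPM with TGFb1 and at 46.9, 45.3 and 54.4 CPM in untreated cells (2.02-fold, edgeR adjusted p = 0.00671). Ifih1, which encodes MDA5, was at 51.9, 47.4 and 46.5 CPM with TGFb1 and at 22.6, 27.8 and 29.1 CPM in untreated cells (1.85-fold, edgeR adjusted p = 0.0096). Neither gene had overlapping groups. Dhx58, the third helicase of this family, had 20.8, 11.0 and 7.66 CPM with TGFb1 and 5.77, 4.93 and 4.86 CPM in untreated cells. It lay just outside the threshold (edgeR adjusted p = 0.0619) and passed with the block (0.00438). Eif2ak2, the RNA-activated kinase PKR, rose 1.57-fold (145, 115 and 98.2 CPM with TGFb1, 82.7, 77.0 and 69.8 CPM in untreated cells, edgeR adjusted p = 0.0405).

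Adar, which edits adenosine in double-stranded RNA, differed by nearly the same step in each pair. It had 139, 111 and 89.1 CPM with TGFb1 and 91.1, 73.3 and 59.1 CPM in untreated cells, and the groups overlapped. Within pairs the difference was 0.61, 0.60 and 0.59 on the log2 scale, and the edgeR adjusted p was 0.000142 with the block and 0.126 without. Oas1a, an oligoadenylate synthetase that activates RNase L, had 50.5, 31.8 and 13.8 CPM with TGFb1 and 17.1, 13.7 and 7.10 CPM in untreated cells, with overlap at replicate 3 of TGFb1. The edgeR adjusted p was 0.000208 with the block and 0.155 without, and it also passed by DESeq2 and in the fit of all 18 libraries. Oas3 had 23.4, 11.4 and 3.91 CPM with TGFb1 and 7.63, 5.76 and 3.62 CPM in untreated cells, so that pair 3 hardly differed. Oas2 was the lowest of the family, at 4.15, 1.60 and 0.362 CPM with TGFb1 and 1.03, 0.459 and 0.369 CPM in untreated cells.

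**Figure D3:**
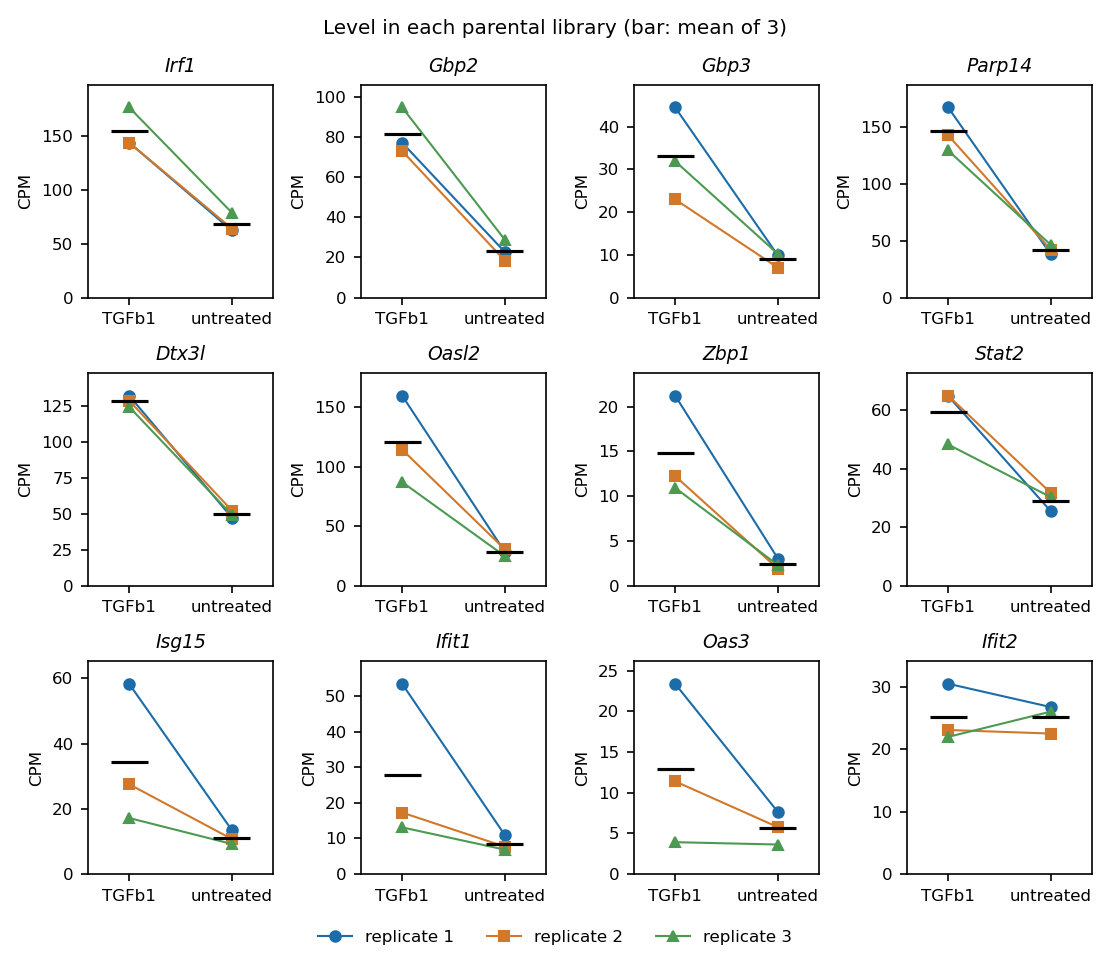
CPM of 12 genes in the 3 TGFb1 and the 3 untreated libraries; lines join libraries of the same replicate number and black bars are the means of 3. Irf1, Gbp2 and Dtx3l are separated by similar steps in each pair, Isg15, Ifit1 and Oas3 most widely in replicate 1, and Ifit2 has crossing lines around 25.1 CPM in both groups.

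Antiviral effectors held the gene that changed least, Ifit2. Of 13, 5 rose without the block and 12 with it, with a median log2 change of 1.72 without it. Xaf1, a pro-apoptotic protein, had 36.6, 20.7 and 18.4 CPM with TGFb1 and 7.04, 5.39 and 5.52 CPM in untreated cells, a 4.23-fold rise with no overlap (edgeR adjusted p = 0.00886). Rtp4, an inhibitor of viral replication, had 52.7, 25.1 and 19.9 CPM with TGFb1 and 10.7, 8.25 and 6.90 CPM in untreated cells (3.79-fold, edgeR adjusted p = 0.0257). Ifi35 rose 1.88-fold (51.1, 40.9 and 45.4 CPM with TGFb1, 24.0, 23.3 and 26.2 CPM in untreated cells, edgeR adjusted p = 0.00735). Samd9l, a restriction factor of poxviruses, rose 2.23-fold, with 98.2, 63.3 and 86.2 CPM in TGFb1 and 34.7, 33.4 and 43.8 CPM in untreated cells (edgeR adjusted p = 0.0143).

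Ifi44 had 31.9, 8.25 and 10.5 CPM with TGFb1 and 4.83, 2.18 and 2.91 CPM in untreated cells, a 5.11-fold rise just inside the threshold (edgeR adjusted p = 0.0495). Ifit1, whose protein binds viral RNA ends, had 53.6, 17.3 and 13.1 CPM with TGFb1 and 10.9, 7.70 and 6.85 CPM in untreated cells. TGFb1 replicate 1 stood far above the other libraries, the groups did not overlap, and the edgeR adjusted p was 0.00415 with the block and 0.0981 without. It also passed by DESeq2 and in the fit of all 18 libraries. Ifit3, of the same family, had 12.1, 3.64 and 1.82 CPM with TGFb1 and 1.99, 1.64 and 0.965 CPM in untreated cells (0.00855 with the block, 0.143 without, edgeR adjusted p). Ifit2 stood apart from both, with 30.5, 23.0 and 21.9 CPM in TGFb1 and 26.7, 22.5 and 25.995 CPM in untreated cells. The groups overlapped fully and the log2 change was 0.01 ± 0.16 SE (edgeR adjusted p = 0.977, or 0.96 with the block).

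Mx2, a dynamin-like GTPase that blocks viruses, was at 6.87, 2.56 and 0.947 CPM with TGFb1 and at 1.06, 0.328 and 0.358 CPM in untreated cells, with an edgeR adjusted p of 0.000684 with the block, against 0.102 without, and it also passed by DESeq2 and in the fit of all 18 libraries. Mx1 had 1.60, 0.367 and 0.0835 CPM with TGFb1 and 0.276, 0.131 and 0.131 CPM in untreated cells. It was lower in pair 3, a direction that is uncertain at such low counts. Bst2, the tether of budding virions, was at 99.4, 73.1 and 36.3 CPM with TGFb1 and 40.9, 45.1 and 34.2 CPM in untreated cells. Bst2 also had the highest level per length of the 46 genes in untreated cells, 44.4 ± 6.1 CPM per kilobase of exon (SD, n = 3), followed by Trim25 at 25.99 ± 1.0 and Irf1 at 17.2 ± 2.3. The neighbouring genes Rsad2 and Cmpk2, which act on nucleotides, were both highest in TGFb1 replicate 1 (8.58 and 9.49 CPM), and both passed with the block and not without it.

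In the ISG15, ubiquitin and PARP group 5 of 11 rose without the block and all 11 with it, with a median log2 change of 0.82 without it. Dtx3l, a ubiquitin ligase, had the smallest p of the 46 genes, with 132, 129 and 124 CPM with TGFb1 and 47.4, 52.3 and 49.3 CPM in untreated cells. Its replicates were nearly equal within each group, and the rise was 2.61-fold (log2 change 1.38 ± 0.09 SE, edgeR adjusted p = 0.00137). Parp9, which forms a complex with Dtx3l, had 166, 129 and 121 CPM with TGFb1 and 60.0, 55.5 and 50.4 CPM in untreated cells (2.52-fold, edgeR adjusted p = 0.00387). Parp14, a mono-ADP-ribosyltransferase, had 168, 143 and 130 CPM with TGFb1 and 38.0, 42.1 and 46.4 CPM in untreated cells (3.51-fold, edgeR adjusted p = 0.00144). These 3 genes are neighbours on chromosome 16, and all kept their calls without each of the 6 libraries in turn.

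Parp12, an antiviral PARP family member, rose 1.77-fold, with 107, 92.8 and 102 CPM in TGFb1 and 51.4, 55.8 and 65.0 CPM in untreated cells (edgeR adjusted p = 0.00918). Trim25, the ubiquitin ligase of RIG-I, rose 1.29-fold, the smallest called change, with 208, 188 and 178 CPM in TGFb1 and 148, 144 and 156 CPM in untreated cells (edgeR adjusted p = 0.0438). Isg15, the ubiquitin-like modifier, had 58.4, 27.5 and 17.2 CPM with TGFb1 and 13.4, 10.7 and 9.21 CPM in untreated cells. It did not overlap, yet lay just outside the threshold (edgeR adjusted p = 0.0609) and passed with the block (0.00214). Trim21, an intracellular antibody receptor, was at 20.5, 17.0 and 20.9 CPM with TGFb1 and 11.5, 12.4 and 14.7 CPM in untreated cells (edgeR adjusted p = 0.0553, or 0.00166 with the block). Sp100, a nuclear body protein, was at 37.7, 21.3 and 18.8 CPM with TGFb1 and 17.6, 14.5 and 13.8 CPM in untreated cells (edgeR adjusted p = 0.137, or 0.00351 with the block).

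The GTPases act on the vacuoles of intracellular pathogens; 5 of 6 rose without the block and all 6 with it, with a median log2 change of 1.61 without it. Gbp2, a guanylate-binding protein, had 77.1, 73.0 and 94.7 CPM with TGFb1 and 22.7, 18.4 and 28.8 CPM in untreated cells. The groups were well separated and the rise was 3.54-fold (log2 change 1.82 ± 0.20 SE, edgeR adjusted p = 0.0046). Gbp3 had 44.5, 23.0 and 31.9 CPM with TGFb1 and 9.87, 7.003 and 10.2 CPM in untreated cells (3.69-fold, edgeR adjusted p = 0.0101). Gbp7 had 29.98, 19.1 and 25.04 CPM with TGFb1 and 9.60, 10.3 and 12.7 CPM in untreated cells (2.29-fold, edgeR adjusted p = 0.0156).

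Of the immunity-related GTPases, Irgm1 had 176, 89.3 and 77.5 CPM with TGFb1 and 40.5, 32.8 and 32.8 CPM in untreated cells (3.24-fold, edgeR adjusted p = 0.0199). Igtp had 30.2, 17.6 and 12.3 CPM with TGFb1 and 7.42, 6.89 and 6.67 CPM in untreated cells (2.87-fold, edgeR adjusted p = 0.0287). In both genes the untreated libraries were close together and the TGFb1 libraries were spread out. Iigp1 was low, at 2.97, 0.815 and 0.459 CPM with TGFb1 and 0.755, 0.407 and 0.441 CPM in untreated cells, with an edgeR adjusted p of 0.0356 with the block, against 0.286 without. Ifit, Oas, Gbp, Mx and immunity-related GTPase genes have close paralogs, and how the authors counted reads that fit several genes is not given in the sources used here, so single values of these families are uncertain.

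The size of the rise differed between the pairs. The median log2 change of the 46 genes was 1.62 in pair 1, 1.02 in pair 2 and 0.79 in pair 3, and it was largest in pair 1 for 43 of the 46 genes and smallest in pair 3 for 39. Over all genes tested, those that rose and those that fell, the pair medians were -0.01, -0.01 and -0.03. The shares of all genes, or of all that rose, largest in pair 1 or smallest in pair 3 were not counted. Whether this order of the pairs is particular to the 46 genes was therefore not tested. By role, the medians of pairs 1, 2 and 3 were 2.18, 1.02 and 0.85 for the antiviral effectors, 1.93, 1.39 and 1.11 for the GTPases and 1.56, 0.97 and 0.64 for RNA sensing. Genes of the ISG15, ubiquitin and PARP group had medians of 1.17, 0.73 and 0.54, and the regulators 1.35, 1.03 and 0.85.

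Some genes moved by nearly the same step in each pair. Irf1 was 1.21, 1.17 and 1.16 higher on the log2 scale, Gbp2 1.76, 1.98 and 1.71, Dtx3l 1.48, 1.30 and 1.33 and Parp9 1.46, 1.22 and 1.26. Others depended on the pair. Mx1 changed by 2.18, 1.02 and -0.33, Oas2 by 1.91, 1.60 and -0.02, Usp18, which removes ISG15 from proteins, by 2.44, 1.61 and 0.54, and Cmpk2 by 1.85, 0.93 and 0.10. These genes were chosen after their values were seen.

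**Figure D4:**
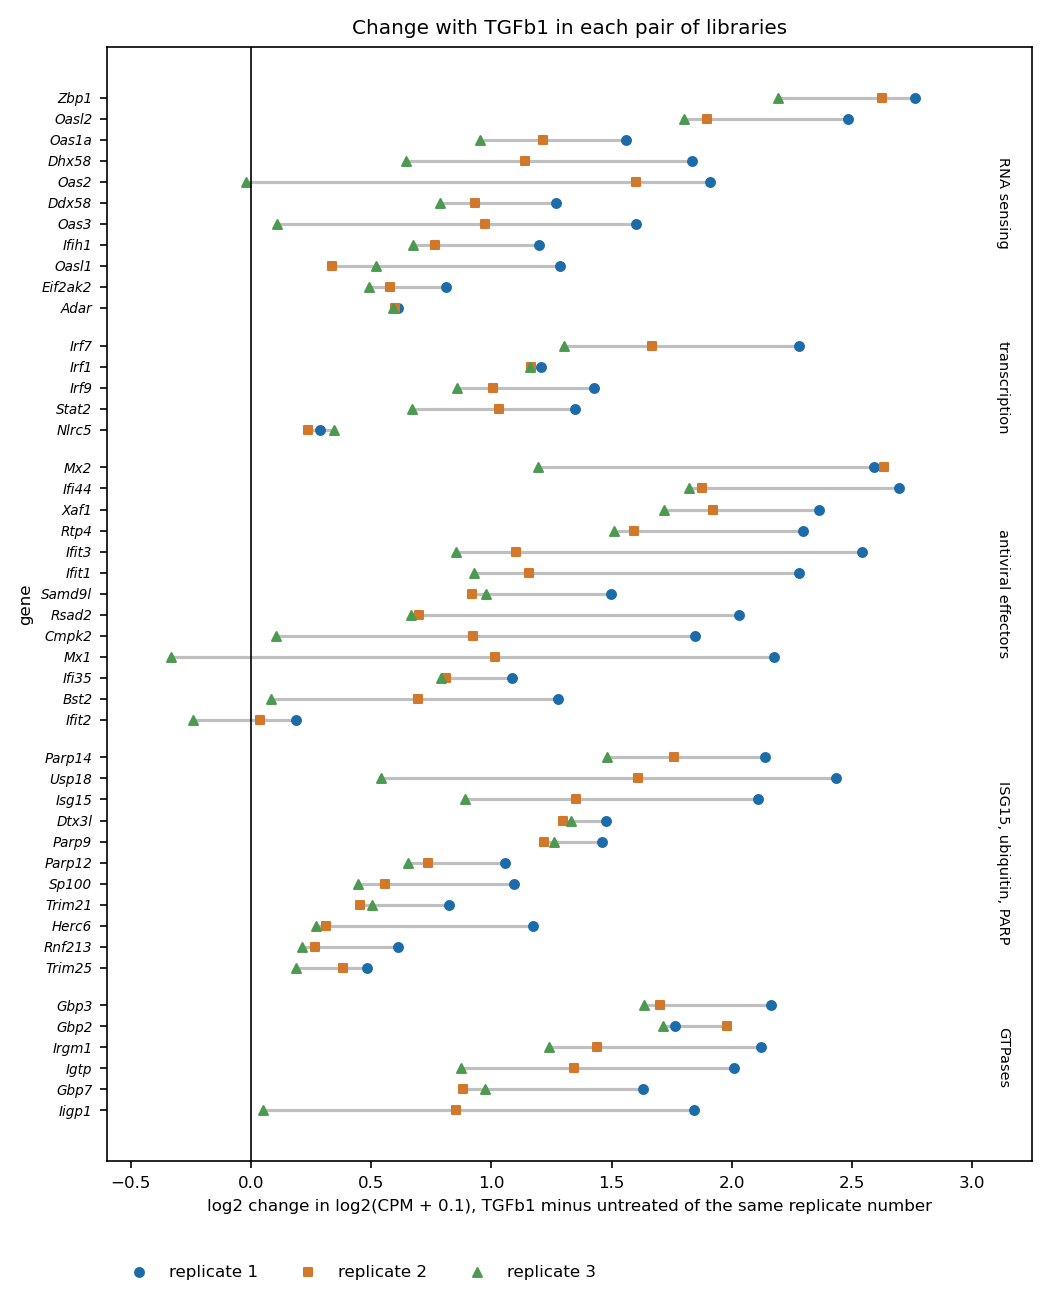
Difference in log2(CPM + 0.1), TGFb1 minus untreated, of each of the 46 genes in the pairs of replicate 1 (circles), 2 (squares) and 3 (triangles), with genes grouped by role. Circles lie to the right in most rows, triangles to the left, and the 3 points of Irf1, Adar, Gbp2, Dtx3l and Parp9 are close together.

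Without the block, the count of calls was 8 without untreated replicate 2 and 14 without TGFb1 replicate 2, and 16 without untreated replicate 1 or untreated replicate 3. The 8 genes that kept their calls without each of the 6 libraries in turn were Ddx58, Dtx3l, Gbp2, Irf1, Oasl2, Parp14, Parp9 and Zbp1. Gbp3, Ifi35, Parp12, Samd9l and Xaf1 lost theirs only without untreated replicate 2 (edgeR adjusted p of 0.0544 to 0.0772), Gbp7 without untreated replicate 1 or 2, and Ifih1 and Stat2 without replicate 2 of either group. Irgm1 was lost without untreated replicate 2 or 3 or TGFb1 replicate 2, and Igtp and Rtp4 without any untreated library or TGFb1 replicate 2. Eif2ak2 and Irf9 kept theirs only without TGFb1 replicate 3, and Ifi44 and Trim25 lost theirs whichever of the 6 was left out. With the pairs as a block, 39 genes rose without pair 1, 35 without pair 2 and 41 without pair 3.

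The 17 genes with a response element core in the window had a median log2 change of 1.35 with TGFb1, and 9 of them were called; the 18 without one had a median of 1.03, and 10 were called. The 9 genes with the longer element had a median of 1.70, and the 26 without it 1.10. For the gamma-activated site core the medians were 0.91 for the 9 genes with it and 1.28 for the 26 without. These medians are given as a description, with no test, since windows, paralogs and neighbours are shared.

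Genes upstream of the list were read next. The interferon genes themselves were near the limit of detection: of 11 ligand genes, 5 had 0 counts in all 18 libraries, 9 had at most 5 counts in every library, and the highest single value was 9 counts, of Ifng. Of 31 receptor, kinase, adaptor and inhibitor genes tested, 4 rose and 1 fell with TGFb1, where 6.14% of all genes were called higher and 4.92% lower. With the pairs as a block 11 rose and 6 fell, where 22.4% and 22.5% of all genes did. The median log2 change of the 31 was 0.14 without the block. Ifngr2, a chain of the interferon gamma receptor, had 67.4, 66.7 and 52.5 CPM with TGFb1 and 42.6, 38.4 and 30.02 CPM in untreated cells, a rise of 0.76 on the log2 scale (edgeR adjusted p = 0.0351). Ifngr1, its partner chain, had 47.7, 49.0 and 62.4 CPM with TGFb1 and 34.2, 34.01 and 41.8 CPM in untreated cells, with no overlap (edgeR adjusted p = 0.0796, or 0.000626 with the block). Il28ra, the receptor chain of interferon lambda, was at 10.7, 9.86 and 5.57 CPM with TGFb1 and 6.51, 6.49 and 4.12 CPM in untreated cells (edgeR adjusted p = 0.278, or 0.00244 with the block). Ifnar1, a chain of the type I receptor, had 77.7, 87.4 and 82.0 CPM with TGFb1 and 86.9, 93.9 and 73.7 CPM in untreated cells, with full overlap.

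Jak1 had 203, 170 and 232 CPM with TGFb1 and 134, 112 and 137 CPM in untreated cells (log2 change 0.67, edgeR adjusted p = 0.0336). Jak2 moved the other way, with 127, 101 and 83.9 CPM in TGFb1 and 262, 226 and 182 CPM in untreated cells (log2 change -1.09, edgeR adjusted p = 0.0165). Stat3 rose by 0.58 on the log2 scale (edgeR adjusted p = 0.0251), and so did Nlrx1, a mitochondrial inhibitor of antiviral signalling, by 1.16 (0.0351). Of the sensors and adaptors, Tlr3, Mavs and Irf3 had the smallest p. Tlr3, a receptor of double-stranded RNA, was at 77.0, 77.7 and 82.1 CPM with TGFb1 and 47.7, 56.6 and 75.2 CPM in untreated cells (edgeR adjusted p = 0.195, or 0.0107 with the block). Mavs, the adaptor of RIG-I and MDA5, was at 36.3, 32.3 and 24.3 CPM with TGFb1 and 46.6, 41.02 and 33.9 CPM in untreated cells (edgeR adjusted p = 0.27, or 0.00261 with the block), lower in each pair. Irf3 was at 23.4, 21.7 and 20.9 CPM with TGFb1 and 22.4, 17.82 and 16.7 CPM in untreated cells and was not called in either fit (edgeR adjusted p = 0.437, or 0.0589 with the block).

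Socs3, an inhibitor of cytokine signalling, was at 17.85, 21.9 and 15.0 CPM with TGFb1 and 21.1, 27.0 and 22.6 CPM in untreated cells (edgeR adjusted p = 0.275, or 0.0103 with the block). Socs1, a feedback inhibitor of the kinases, was lower with TGFb1 in every library, at 1.85, 1.34 and 0.822 CPM against 4.28, 3.50 and 2.75 CPM in untreated cells (edgeR adjusted p = 0.0522, or 0.00042 with the block).

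The macrophage marker Csf1r rose with TGFb1, to 1.80, 2.03 and 3.22 CPM against 0.108, 0.0918 and 0.298 CPM in untreated cells (edgeR adjusted p = 0.00954), and the pan-leukocyte gene Ptprc was lower, at 0.156, 0.218 and 0.111 CPM against 0.611, 0.603 and 0.703 CPM in untreated cells (0.0179). Emr1, which marks macrophages, was at 0 in the 3 TGFb1 libraries and had 0, 0 and 1 counts in the untreated libraries. The 7 macrophage and dendritic markers summed to 17.0 to 30.4 CPM with TGFb1 and 11.1 to 26.2 CPM in untreated cells, and the part of these markers in the changes above was not tested.

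The second question was whether Wisp1 overexpression changed these genes. On plastic 42 of the 46 were tested (Mx1, Mx2, Oas2 and Iigp1 did not pass the filter on low counts), and edgeR called 0 higher and 0 lower, against 0.0143% of 13953 genes called higher and 0% called lower. At an unadjusted p under 0.05 there were 5 of 42, against 5.89% of all genes, and DESeq2 and limma-voom also called 0. The median log2 change was -0.04. The lines did not overlap for 3 genes, all higher in Wisp1 (Bst2, Nlrc5 and Oas1a), against 6.3% of all genes in that direction and 5.92% in the other, and 9 of 42 genes were higher in Wisp1 in each pair, against 20.4% of all genes. Mx1, Oas2 and Iigp1 had under 10 counts in every library of the stable lines.

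The 3 smallest p-values on plastic were those of Ifih1, Nlrc5 and Irgm1. Ifih1 had 12.6, 13.6 and 13.8 CPM in Wisp1 and 13.7, 16.1 and 15.6 CPM in EV (log2 change -0.18, edgeR adjusted p = 0.792). Nlrc5 had 22.1, 20.5 and 22.2 CPM in Wisp1 and 19.6, 18.2 and 20.0 CPM in EV (0.17, adjusted p = 0.792). Irgm1 had 15.3, 17.6 and 17.0 CPM in Wisp1 and 16.6, 21.3 and 19.4 CPM in EV (-0.20, adjusted p = 0.8). Nlrc5 did not overlap between the lines and the other 2 did. In the stable lines replicate numbers also passed the check of pairs within each substrate (0.15, 0.25 and 0.28 on plastic, 0.49, 0.17 and 0.36 on collagen).

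With the pairs of each substrate as a block, Parp14 and Irgm1 were lower in Wisp1 on plastic (log2 change -0.19, edgeR adjusted p = 0.0286, and -0.20, 0.0457), 2 of 42 where 1.08% of all genes were called lower and 2.08% higher. Parp14 had 22.1, 24.0 and 25.2 CPM in Wisp1 and 23.4, 28.5 and 29.7 CPM in EV, with overlapping groups and a lower Wisp1 value in each pair. Without pair 3 1 gene was called that way, and without pair 1 or pair 2 the count was 0.

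On collagen edgeR again called 0 of 42 genes between Wisp1 and EV, against 0.043% of all genes called higher and 0.0287% lower, with 10 of 42 at an unadjusted p under 0.05 (5.07% of all genes). DESeq2 called 1 and limma-voom 0. The fitted change was above 0 for 40 of the 42 genes, with a median of 0.19 on the log2 scale, against -5.4e-05 over all genes. Wisp1 was the higher of the pair for 40, 38 and 32 of the 42 genes in pairs 1, 2 and 3, with median log2 differences of 0.22, 0.16 and 0.06. Over all genes those medians were 0.02, 0.003 and -0.04, and the share of all genes higher in a single pair was not counted. In each of the 3 pairs Wisp1 was higher for 29 of 42 genes, against 15.9% of all genes. The groups did not overlap for 8 genes, all higher in Wisp1, against 4.41% of all genes in that direction and 4.53% in the other. Without a block, the smallest p were those of Sp100 (edgeR adjusted p = 0.296), Oas1a (0.431) and Cmpk2 (0.701). With replicate numbers as 1 block over both substrates, 1 gene (Sp100) was higher and 0 lower, where 0.0932% and 0.0358% of all genes were called.

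With the pairs of each substrate as a block, 5 genes were higher in Wisp1 on collagen and 0 lower, where 1.63% of all genes were called higher and 0.939% lower. Sp100 had 10.1, 8.67 and 8.62 CPM in Wisp1 and 7.35, 6.63 and 5.55 CPM in EV, with no overlap (log2 change 0.50 ± 0.07 SE, edgeR adjusted p = 0.000616). Oas3 had 4.95, 4.17 and 3.39 CPM in Wisp1 and 3.36, 3.04 and 2.00 CPM in EV (0.59 ± 0.11 SE, edgeR adjusted p = 0.009). Oas1a had 4.60, 4.48 and 4.03 CPM in Wisp1 and 2.89, 3.74 and 2.97 CPM in EV (0.46 ± 0.10 SE, adjusted p = 0.0176). In these 3 genes each Wisp1 library stood above each EV library. Oasl2 (0.34, adjusted p = 0.0242) and Cmpk2 (1.32, adjusted p = 0.0242) were the others, Cmpk2 at 0.524, 0.734 and 0.579 CPM in Wisp1 and 0.272, 0.243 and 0.219 CPM in EV. The count was 1 without pair 1 and 3 without pair 2 or pair 3. The macrophage and dendritic markers summed to 16.4 to 17.5 CPM in Wisp1 and 13.5 to 15.5 CPM in EV on collagen, with no overlap and 1 of the 7 at 0 in both, and their part in these differences was not tested.

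The difference between the Wisp1 effects on collagen and on plastic was tested as an interaction. Without a block edgeR called 0 of 42, as it did over all genes (0%), with 6 at an unadjusted p under 0.05 (2.94% of all genes), and DESeq2 and limma-voom also called 0. The 3 smallest p-values were those of Ifih1 (0.33 on the log2 scale), Irgm1 (0.36) and Parp9 (0.30), each with an edgeR adjusted p of 0.973. With the pairs of each substrate as a block, an analysis chosen after the data were seen, 3 genes passed, where 0.208% of all genes did so in that direction and 0.294% in the other. They were Parp14 (0.32 ± 0.06 SE, edgeR adjusted p = 0.0292), Irgm1 (0.35 ± 0.07 SE, 0.0339) and Gbp2 (0.51 ± 0.11 SE, 0.039). Under that block the count was 1, 0 and 7 without pairs 1, 2 and 3 on plastic and 0, 1 and 3 without pairs 1, 2 and 3 on collagen.

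**Figure D5:**
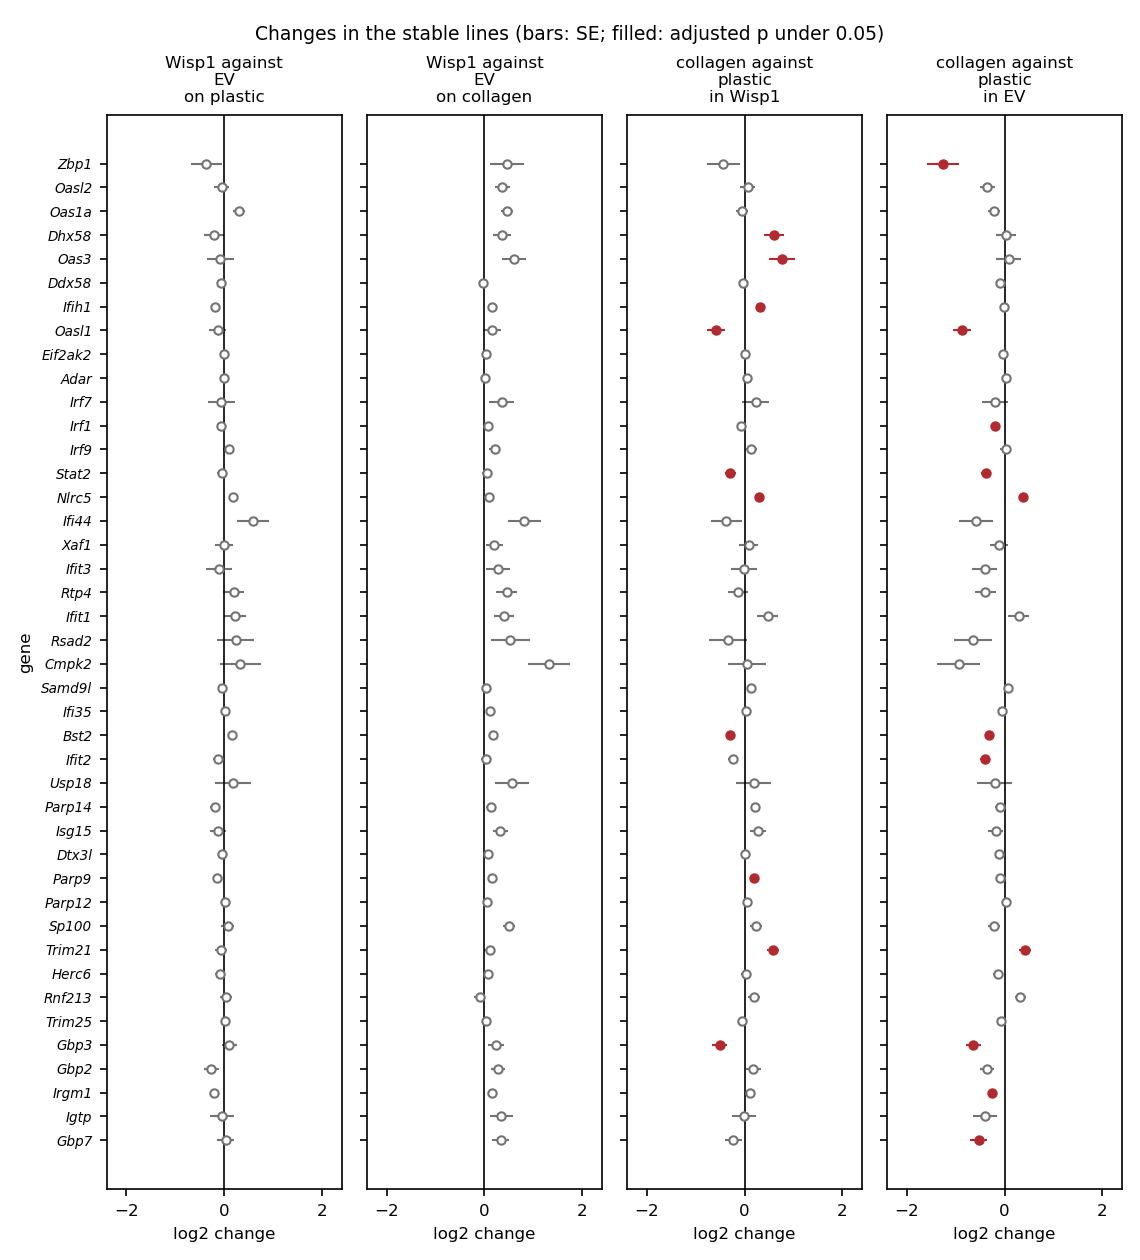
Fitted log2 change with its SE for the 42 genes tested in the stable lines, in the comparisons of Wisp1 with EV (left panels) and of collagen with plastic (right panels); filled red points have an adjusted p under 0.05 without a block. No point is filled in the Wisp1 comparisons, most points lie above 0 in the one on collagen, and the filled points of the right panels lie on both sides of 0.

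Substrate was the second factor of the stable lines. In the titles each group has its own sample code, and same-numbered libraries did not pair across substrates. The titles do not say whether cultures on plastic and on collagen were handled together, so substrate and handling cannot be told apart. In the Wisp1 line 6 of 42 genes were higher and 4 lower on collagen, and 21.3% and 19.1% of all genes were called in those directions, so the share among these genes was not above the background. In EV 2 were higher and 9 lower, against 19.2% and 17.3% of all genes, so the share higher was below the background and the share lower near it. The comparisons of Wisp1 with EV and of collagen with plastic share libraries. Nlrc5 was higher on collagen in both lines, with 27.0, 27.1 and 25.1 CPM on collagen and 22.1, 20.5 and 22.2 CPM on plastic in the Wisp1 line (log2 change 0.30, edgeR adjusted p = 0.00174). In EV it had 25.1, 25.8 and 23.6 CPM on collagen and 19.6, 18.2 and 20.0 CPM on plastic (0.37, adjusted p = 0.000358). No library on plastic reached the level of one on collagen. The sums of fibroblast and of macrophage and dendritic markers were also higher on collagen without overlap. Those of leukocyte and of endothelial markers overlapped between the substrates in both lines. In the Wisp1 line the endothelial sum tended the other way, at 0.14 to 0.179 CPM on collagen and 0.163 to 0.29 CPM on plastic. The 6 fibroblast markers summed to 26.5 to 33.6 CPM on collagen and 16.3 to 18.7 CPM on plastic in the Wisp1 line, and to 24.5 to 29.6 CPM on collagen and 15.6 to 21.5 CPM on plastic in EV. The 7 macrophage and dendritic markers summed to 16.4 to 17.5 CPM on collagen and 12.1 to 13.5 CPM on plastic in the Wisp1 line, and to 13.5 to 15.5 CPM on collagen and 10.4 to 12.3 CPM on plastic in EV. The 8 epithelial markers summed to 4034 to 4438 CPM on collagen and 3492 to 3911 CPM on plastic in EV, also without overlap. In the Wisp1 line their sums overlapped, at 3877 to 5107 CPM on collagen and 3478 to 3895 CPM on plastic. Of the fibroblast markers 2 or 3 were at 0 in a group, of the macrophage and dendritic markers 1. The part of all these markers in the changes was not tested.

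Trim21 was likewise higher on collagen in the Wisp1 line (0.59, edgeR adjusted p = 0.00192) and in EV (0.41, adjusted p = 0.0157). Bst2 was lower on collagen, with 29.2, 29.3 and 24.6 CPM on collagen and 34.2, 34.1 and 34.5 CPM on plastic in the Wisp1 line (-0.30, edgeR adjusted p = 0.00169). In EV it had 24.2, 25.5 and 24.2 CPM on collagen and 29.6, 32.5 and 30.6 CPM on plastic (-0.32, adjusted p = 0.00105). Gbp3 (-0.51 in Wisp1 and -0.64 in EV), Oasl1 (-0.58 and -0.88) and Stat2 (-0.29 and -0.38) were also lower on collagen in both lines. Their edgeR adjusted p were 0.0193 and 0.00522, 0.0243 and 0.002, and 0.0411 and 0.0107. Over the 14 alternatives run, Stat2 lost its call in 7 in the Wisp1 line and in 2 in EV. Gbp3 and Oasl1 each lost theirs in 3 in the Wisp1 line and in 1 in EV.

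Called higher in the Wisp1 line and not in EV were Ifih1 (0.32, edgeR adjusted p = 0.00155), Dhx58 (0.60, 0.0305), Oas3 (0.77, 0.0322) and Parp9 (0.20, 0.0357). Called lower in EV and not in Wisp1 were Ifit2 (-0.40, edgeR adjusted p = 0.00608), Zbp1 (-1.26, 0.00715), Irgm1 (-0.25, 0.0208), Irf1 (-0.20, 0.0283) and Gbp7 (-0.53, 0.0313). That difference between the lines is the interaction given above, where 0 genes passed without a block. Over 14 alternatives in the Wisp1 line, Oas3 lost its call in 6, Dhx58 and Parp9 in 5 each and Ifih1 in 0. Over 14 in EV, Irf1 lost its call in 6, Irgm1 in 5, Gbp7 in 4 and Ifit2 in 0. Zbp1 lost its call in 1 of 13. In EV 4 genes were lower without EV replicate 2 on plastic and 1 higher without EV replicate 3 on plastic. In the Wisp1 line 3 were higher without Wisp1 replicate 3 on plastic and 10 without Wisp1 replicate 3 on collagen, and 1 was lower without Wisp1 replicate 2 on plastic and 2 without Wisp1 replicate 3 on collagen.

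Across the 6 groups the levels fell into an order in which the parental groups came first. The mean over libraries of the median level of the 46 genes was 32.7 CPM with TGFb1 and 15.7 CPM in untreated cells, 6.87 CPM in Wisp1 and 6.88 CPM in EV on plastic, and 8.33 CPM in Wisp1 and 6.38 CPM in EV on collagen. Single TGFb1 libraries had medians of 48.4, 26.3 and 23.5 CPM, and single untreated libraries 17.4, 15.5 and 14.2 CPM. In the 12 libraries of the stable lines the medians ran from 5.50 to 9.51 CPM, below each parental library, and the 4 groups of stable lines overlapped.

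EV on plastic was set against untreated parental cells to measure that step. Vector, selection, change of medium, culture and the sample codes in the titles differ with these groups and cannot be told apart. Of 46 genes tested 1 was higher in EV and 40 lower by edgeR, against 19.5% and 23.8% of 14476 genes, with a median log2 change of -1.09 (-0.05 over all genes). This comparison shares the untreated libraries with that of TGFb1. Without EV replicate 1 on plastic 26 genes were lower. All 6 GTPases, 12 of 13 antiviral effectors, 10 of 11 genes of the ISG15, ubiquitin and PARP group, 8 of 11 of RNA sensing and 4 of 5 regulators were lower in EV, with median log2 changes of -0.94, -1.60, -0.65, -1.17 and -1.11. The groups did not overlap for 40 genes lower in EV and 2 higher, against 29% and 28.6% of all genes. With a replicate block 37 genes were lower, where 19.7% of all genes were; same-numbered libraries are not paired here.

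Irf7 had 0.788, 1.60 and 1.01 CPM in EV and 9.42, 5.60 and 3.55 CPM in untreated cells (log2 change -2.44, edgeR adjusted p = 0.00389). Oasl2 had 6.83, 9.003 and 8.06 CPM in EV and 28.4, 30.6 and 24.9 CPM in untreated cells (-1.82, adjusted p = 0.000391). Ifit1 had 1.48, 2.16 and 1.49 CPM in EV and 10.9, 7.70 and 6.85 CPM in untreated cells (-2.32, adjusted p = 0.000852). None of these groups overlapped. Igtp (-1.61, edgeR adjusted p = 0.000581), Ifi44 (-2.37, 0.00402), Oas1a (-1.77, 0.00419), Usp18 (-2.25, 0.0046) and Isg15 (-1.21, 0.00471) were also lower in EV, while the smallest of the called falls were those of Dtx3l (-0.25, 0.0442), Ifi35 (-0.31, 0.0474) and Trim25 (-0.31, 0.00914). Over the 13 alternatives run, Dtx3l lost its call in 8, Ifi35 in 9 and Trim25 in 2. Mx1, Oas2 and Iigp1 were at under 10 counts in each EV library, so no fold is given for them.

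There were 5 genes not called between EV and untreated cells, and Rnf213 was the 1 called higher. Rnf213, a large ubiquitin ligase, had 150, 138 and 163 CPM in EV and 100, 115 and 130 CPM in untreated cells (log2 change 0.37, edgeR adjusted p = 0.0391). That call was lost without untreated replicate 2 and without each EV library. Irf1 had 80.6, 85.2 and 84.2 CPM in EV and 62.4, 64.2 and 79.0 CPM in untreated cells (0.27, adjusted p = 0.0793). Ddx58 had 45.3, 50.1 and 48.6 CPM in EV and 46.9, 45.3 and 54.4 CPM in untreated cells (-0.04, adjusted p = 0.762). Ifit2 had 30.2, 35.8 and 25.0 CPM in EV and 26.7, 22.5 and 25.995 CPM in untreated cells (0.26, adjusted p = 0.183), and Adar (0.09, adjusted p = 0.633) and Eif2ak2 (-0.22, adjusted p = 0.0787) were the others. The 7 macrophage and dendritic markers summed to 10.4 to 12.3 CPM in EV and 11.1 to 26.2 CPM in untreated cells; of these Emr1 had 15 to 23 counts in the EV libraries and at most 1 count in the untreated ones. The 6 fibroblast markers summed to 15.6 to 21.5 CPM in EV and 34.3 to 58.6 CPM in untreated cells, with no overlap. Of them 3 and 1 were at 0. The 8 epithelial markers were also lower in EV without overlap, at 3492 to 3911 CPM against 4033 to 6135 CPM. So were the 5 endothelial markers, at 0.143 to 0.276 CPM against 0.289 to 0.417 CPM, while the sums of the 8 leukocyte markers overlapped. The part of these markers in the differences was not tested.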

How the data were processed

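Each deposited table holds whole-number counts of reads per gene for 1 library, not normalized by the authors. Tools listed in the submitters' processing notes, without their roles, are HTSeq, STAR, BWA, CASAVA, R 3.2.4 and limma, and the build listed is mm9. Sources used here do not give the annotation, the strand setting or how reads that fit several genes were counted. Libraries were made with a stranded poly(A) kit, per the labels. Entries that name no gene were left out: 10.2 to 13.5% of reads lay outside genes, 1.02 to 2.08% were ambiguous and 1.84 to 3.47% had no alignment. No replicates agreed within sampling noise.

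Counts were tested with edgeR 4.0.16 in R 4.3.3 (filterByExpr, TMM, robust quasi-likelihood F tests), with Benjamini-Hochberg adjustment over all genes tested in a comparison and a threshold of 0.05. Parental groups had a fit of 6 libraries, the stable lines 1 fit of 12, and EV against untreated a fit of 6. SE was taken as the log2 change divided by the root of the F statistic. CPM is scaled by TMM over 18 libraries; pair differences use a pseudocount of 0.1 CPM. Pairs by replicate number were accepted where the deviations from group means correlated over 0.1 in all 3 pairs; collagen against plastic (0.13, -0.12 and 0.28 in EV; -0.04, -0.08 and -0.01 in Wisp1) and EV against untreated (-0.11, 0.03 and -0.05) did not pass. Alternatives were DESeq2 1.42.0, limma-voom (limma 3.58.1), other size factors and filters, all 18 libraries in 1 fit, replicate blocks and leaving out each library. The fit without a block was checked on counts simulated without pairs, for TGFb1 against untreated and for Wisp1 against EV on collagen. Fits with a block were not checked that way.

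Members and lists were chosen with earlier results of these data known. Named were the genes called in each comparison, up to 3 per role called only with an accepted block, the 3 smallest p where none was called, those next to the threshold, genes under 10 counts and, of the pathway, called genes, up to 3 per role; 1 further pathway gene is not reported here. For EV against untreated, where 41 were called, examples chosen after their values were seen stand for the rule. In the TGFb1 comparison Oas2, Oas3, Mx1, Bst2, Rsad2, Cmpk2, Usp18, Ifit2 and Ifnar1 were named after their values were seen. Exon lengths are from GENCODE M21 (GRCm38), promoters from RefSeq; the coordinates are of GRCm38.p6 and not of mm9.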

Additional observations from a re-analysis of the deposited data

Results flagged for a closer look

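The difference between the effect of Wisp1 on collagen and its effect on plastic passed for 3 genes when the pairs of libraries within each substrate were taken as a block, a fit chosen after the data were seen. For Parp14 it was 0.316 on the log2 scale: Wisp1 minus EV was 0.18, 0.10 and 0.08 in the 3 pairs on collagen and -0.08, -0.24 and -0.24 on plastic. For Irgm1 it was 0.35, with 0.24, 0.17 and 0.03 on collagen and -0.11, -0.28 and -0.19 on plastic. For Gbp2 it was 0.509, with 0.33, 0.33 and 0.06 on collagen and 0.00, -0.51 and -0.23 on plastic. In Parp14 and Irgm1 every pair was higher in Wisp1 on collagen and lower on plastic. Without the block the edgeR adjusted p was 0.973 for each of the 3. With the block and 1 pair left out, Parp14 and Irgm1 each passed in 2 of 6 fits and Gbp2 in 3. No group had 4 or more libraries, so single libraries were not screened.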

How the results depend on the processing

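No called result changed direction under the alternatives run. Against the 23 members that rose with TGFb1, DESeq2 gave 35, all 18 libraries in 1 fit 40 and the replicate block 45 (45 also with the other size factors); leaving out 1 library gave 8 to 24, and under the block, leaving out pairs 1, 2 and 3 gave 39, 35 and 41. Without the block, other size factors and filters gave 22 and limma-voom 21. For Wisp1 on plastic the block within each substrate gave 2 lower, and 0 to 1 without a pair. On collagen the count higher was 1 by DESeq2, 1 with the replicate block over all 4 groups, 5 with the block within each substrate and 1 to 3 without a pair. The interaction gave 3 higher with that block, and 0 to 7 without a pair. For collagen against plastic, all 18 libraries in 1 fit gave 1 higher and 2 lower in EV and 2 higher and 0 lower in Wisp1; leaving out a library gave 1 to 2 higher and 4 to 9 lower in EV, and 3 to 10 higher and 1 to 4 lower in Wisp1. For EV against untreated, DESeq2 and the fit of 18 gave 2 higher, and leaving out a library 0 to 2 higher and 26 to 40 lower. Same-numbered libraries were not paired across substrates or between EV and untreated; there a replicate block gave 3 higher and 10 lower in EV, 7 higher and 5 lower in Wisp1, and 1 higher and 37 lower for EV against untreated. Genes near the floor of 3 counts in the stable lines (Mx1, Mx2, Oas2, Iigp1) limit what could be tested there.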
